A study of Homo sapiens with 12 samples.

Results

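Catalase and 9 other antioxidant enzymes were followed across 12 bead arrays of human embryonic stem cells. The 10 genes were CAT, SOD1, SOD2, GPX1, GPX4, GPX7, PRDX1, PRDX2, TXNRD1 and NQO1, and a probe counted as a member when the platform annotation gave it that symbol. That took in 17 of the 47314 probes on the arrays, for 9 of the 10 genes and of 20043 genes with a probe in all. No probe of the annotation used here carries the symbol PRDX2, so that gene has no value. A probe entered the tests if at least 2 arrays gave it a detection p below 0.05, where a low detection p means a signal above background. Of the 17 probes 15 did so. On the whole arrays 25905 probes did so, of which 19076 carried a single gene symbol, for 13951 genes.

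The arrays came from H9 and CT2, which are both human embryonic stem cell lines. In each line, JMJD1C, a gene of the histone demethylase family, was knocked down, or cells received a mismatch shRNA as the control, or were left untreated. The labels name an shRNA only for the mismatch cells, and do not say by what agent the knockdown was made. Each of the 6 groups had 2 arrays. Nothing in the labels says whether the 2 arrays of a group came from separate cultures, whether the knockdown and mismatch cells were pooled or clonal, how either agent was delivered, or how long it acted. The p-values below therefore measure only the spread between these arrays, which may be technical.

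Median intensity ran between 150.2 and 196.8 units over the 12 arrays, and 44.70% to 47.31% of probes were detected. The number of arrays, 2 a group, limits the precision. Of 8 pluripotency markers 7 had a probe, and all 7 were detected on every array at a detection p below 0.01. Of 5 neural markers with a probe, PAX6, SOX1, LHX2 and OTX1 were detected on none. EMX2 was detected on both CT2 knockdown arrays, in CT2 mismatch cells but not on both arrays, and in no other group. Of 7 endoderm markers, SOX17, GATA6, GATA4 and TTR were detected on none and AFP was detected in every group. FOXA2 was detected only in H9 knockdown cells, and APOA1 only in H9 knockdown, untreated H9 and CT2 knockdown cells. Neither was detected on both arrays of a group. Of 6 trophoblast markers, CGA, GATA3, HAND1 and PGF were detected on none. KRT7 was detected on both H9 mismatch arrays, and no other group had a trophoblast marker detected on both arrays. Of 5 blood markers, HBB, HBG1 and SPI1 were detected on none. PTPRC was detected in every group and CD34 in every group but CT2 knockdown, both on both arrays in H9 mismatch and untreated CT2 cells. CT2 mismatch replicate 2 stood apart: it correlated at 0.9674 with its own replicate and at 0.9714 with H9 untreated replicate 1, so values without it are given where the results below rest on it. JMJD1C itself had log2 intensities of 10.60 and 10.71 in H9 knockdown cells against 11.95 and 11.51 in H9 mismatch cells, and of 10.77 and 10.71 in CT2 knockdown cells against 12.06 and 12.38 in CT2 mismatch cells. Over both lines it fell by 1.28 ± 0.192 (SE) on the log2 scale, with an adjusted p of 0.000720. Within H9 its change was -1.08 (adjusted p = 0.0438), a call lost under 14 of 21 alternative settings, among them each of the 4 H9 knockdown and mismatch arrays left out, with adjusted p-values up to 0.419. Against untreated cells the JMJD1C change was -1.36 in H9 (adjusted p = 0.0107) and -0.97 in CT2, which did not pass (adjusted p = 0.181). Within CT2 the change against mismatch cells was -1.48 (adjusted p = 0.00716). It was -1.32 (adjusted p = 0.0328) with mismatch replicate 2 left out, and leaving out CT2 knockdown replicate 2 gave an adjusted p of 0.110.

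As background, superoxide dismutases turn superoxide into hydrogen peroxide, which catalase, the glutathione peroxidases and the peroxiredoxins then remove. Catalase works mainly inside peroxisomes and needs no reducing partner, while glutathione peroxidases draw on glutathione and peroxiredoxins on thioredoxin, which thioredoxin reductases recharge with NADPH. NQO1 is a quinone reductase and a textbook target of the transcription factor NRF2, which also drives TXNRD1, PRDX1 and the supply of glutathione. Pluripotent stem cells rely largely on glycolysis and are known for low levels of reactive oxygen species.

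The results below turn on CAT and NQO1, so the DNA around their start sites is shown. Both windows are from the RefSeq promoter table of build GRCh38.p14 and run from 250 bases before to 50 bases after the start, in the direction of the gene. The CAT window is chr11:34438684-34438983 on the plus strand and the NQO1 window is chr16:69726511-69726810 on the minus strand. Capitals mark CCAAT and GGGCGG on either strand, so the same motifs read as ATTGG and CCGCCC when they lie on the other strand.
CAT: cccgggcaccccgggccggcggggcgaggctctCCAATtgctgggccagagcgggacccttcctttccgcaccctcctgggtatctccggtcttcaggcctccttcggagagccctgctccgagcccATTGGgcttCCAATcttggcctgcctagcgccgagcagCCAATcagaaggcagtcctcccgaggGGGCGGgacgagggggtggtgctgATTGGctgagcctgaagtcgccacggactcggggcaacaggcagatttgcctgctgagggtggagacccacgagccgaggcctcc
NQO1: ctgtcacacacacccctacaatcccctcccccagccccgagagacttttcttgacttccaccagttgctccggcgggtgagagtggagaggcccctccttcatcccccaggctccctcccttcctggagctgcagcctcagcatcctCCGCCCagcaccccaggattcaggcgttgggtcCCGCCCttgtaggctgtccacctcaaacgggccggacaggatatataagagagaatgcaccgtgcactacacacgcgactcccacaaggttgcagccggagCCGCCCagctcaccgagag
The CAT window held 5 copies of CCAAT, the letters bound by the factor NF-Y, with 3 in the direction of the gene and 2 in reverse. Of 35116 windows in that table, 34.6% held CCAAT and 0.359% held at least 5 copies. GGGCGG, the GC box read by SP1, occurred 1 time in the CAT window and 3 times in the NQO1 window, and in 45.0% of all windows. The core of the antioxidant response element, TGACNNNGC, was in neither window on either strand, in 13.3% of all windows, and 2 times and 1 time in the pair of TXNRD1 windows. No match says only that these letters are not in this stretch, and no copies of these motifs overlapped in the CAT and NQO1 windows. The CAT window also had 20 CpG dinucleotides, a number that 41.2% of windows reached, and the NQO1 window had 14. SOD1 and PRDX1 have no entry in the table.

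Catalase signal fell below detection in H9 cells with JMJD1C knocked down and stayed detected in CT2 knockdown cells. On the probe with the higher intensity, ILMN_1651705, the normalized log2 intensity was 5.20 and 5.74 in H9 knockdown cells, 9.61 and 9.30 in H9 mismatch cells, and 8.62 and 8.85 in untreated H9 cells. Before normalization these intensities were 143.2 and 192.8 units in H9 knockdown cells, against 986.4 and 776.9 in H9 mismatch cells and 478.5 and 629.7 in untreated H9 cells. Both H9 knockdown arrays lay below every other array, and neither was well above background, with detection p-values of 0.468 and 0.0974. The probe was detected on the other 10 arrays. The same probe read 10.07 and 9.57 in CT2 knockdown cells, 9.52 and 10.13 in CT2 mismatch cells, and 9.69 and 9.49 in untreated CT2 cells, so the CT2 groups overlapped.

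In H9 the fitted difference of knockdown minus mismatch was -3.99 ± 0.291 (SE, n = 2 arrays each), with an adjusted p of 4.90e-07 from limma. Because the knockdown arrays hold only a bound, CAT was at least 11.2-fold lower in H9 knockdown than in H9 mismatch cells. Each bound here sets the mean of the brighter group against the lowest signal among detected probes on the dimmer arrays. Against untreated H9 cells it was at least 6.85-fold lower in the knockdown (fitted -3.27, adjusted p = 7.02e-06). Without background correction the fitted values were -2.27 against mismatch and -1.70 against untreated cells, so the size of the CAT fall depends on that step, and the bounds hold for corrected intensities. In bulk samples, fewer cells that express CAT and less CAT RNA per cell cannot be told apart. In CT2 the difference of knockdown minus mismatch was -0.01, with a 95% interval of -0.62 to 0.61 and an adjusted p of 0.992, and it was 0.30 (adjusted p = 0.707) with mismatch replicate 2 of CT2 left out. With CT2 mismatch replicate 2 and H9 untreated replicate 1 both left out, the CAT difference of H9 knockdown minus mismatch was -3.99 and that of H9 knockdown minus untreated was -3.38.

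The difference between the lines was tested directly, as the H9 response minus the CT2 response. For CAT it was -3.98 ± 0.412 (SE) on the log2 scale, with an adjusted p of 6.10e-05. It was -4.28 with CT2 mismatch replicate 2 and H9 untreated replicate 1 both left out. Between the knockdown groups, CAT was at least 14.5-fold lower in H9 than in CT2 (fitted -4.35, adjusted p = 6.43e-08). Among untreated cells the H9 minus CT2 difference was -0.85 (adjusted p = 0.0591), which did not pass the threshold, though both H9 arrays lay below both CT2 arrays. That difference passed the threshold when CT2 mismatch replicate 1 or replicate 2 was left out of the shared estimate of the spread, and without background correction.

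The order of the CAT group means, from the highest and with the first 2 almost level, was CT2 mismatch at 9.83, CT2 knockdown at 9.82, untreated CT2 at 9.59, H9 mismatch at 9.45, untreated H9 at 8.74 and H9 knockdown at 5.47. Neighbours among the first 4 of these groups overlapped in their arrays. The arrays of H9 mismatch and untreated H9 did not overlap, but their difference, mismatch minus untreated, was 0.72 with an adjusted p of 0.422. The step below untreated H9 was the widest in the order.

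A further CAT probe, ILMN_2151739, was read from the same arrays. It read 5.34 and 5.16 in H9 knockdown cells, 7.24 and 7.62 in H9 mismatch cells, and 7.51 and 6.88 in untreated H9 cells. In CT2 it read 8.21 and 8.11 in knockdown cells, 8.28 and 8.48 in mismatch cells, and 8.09 and 8.17 in untreated cells. Again both H9 knockdown arrays were not well above background and lay below the other 10. In a fit over all kept probes, its H9 knockdown minus mismatch difference was -2.18 ± 0.308 (SE, adjusted p = 0.00117), or at least 2.76-fold lower. Its line difference was -1.96 ± 0.436 with an adjusted p of 0.112, so the test between the lines passed on the higher probe and not on this dimmer one.

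The authors' deposited table, which was normalized within each line, holds CAT intensities of 143.6 and 176.5 in H9 knockdown cells, 971.5 and 810.3 in H9 mismatch cells, and 553.7 and 626.6 in untreated H9 cells. For CT2 the authors' deposited table holds 1117 and 825.2 in knockdown cells, 803.8 and 1159 in mismatch cells, and 888.4 and 788.0 in untreated cells. The low pair is again H9 knockdown.

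**Figure D1:**
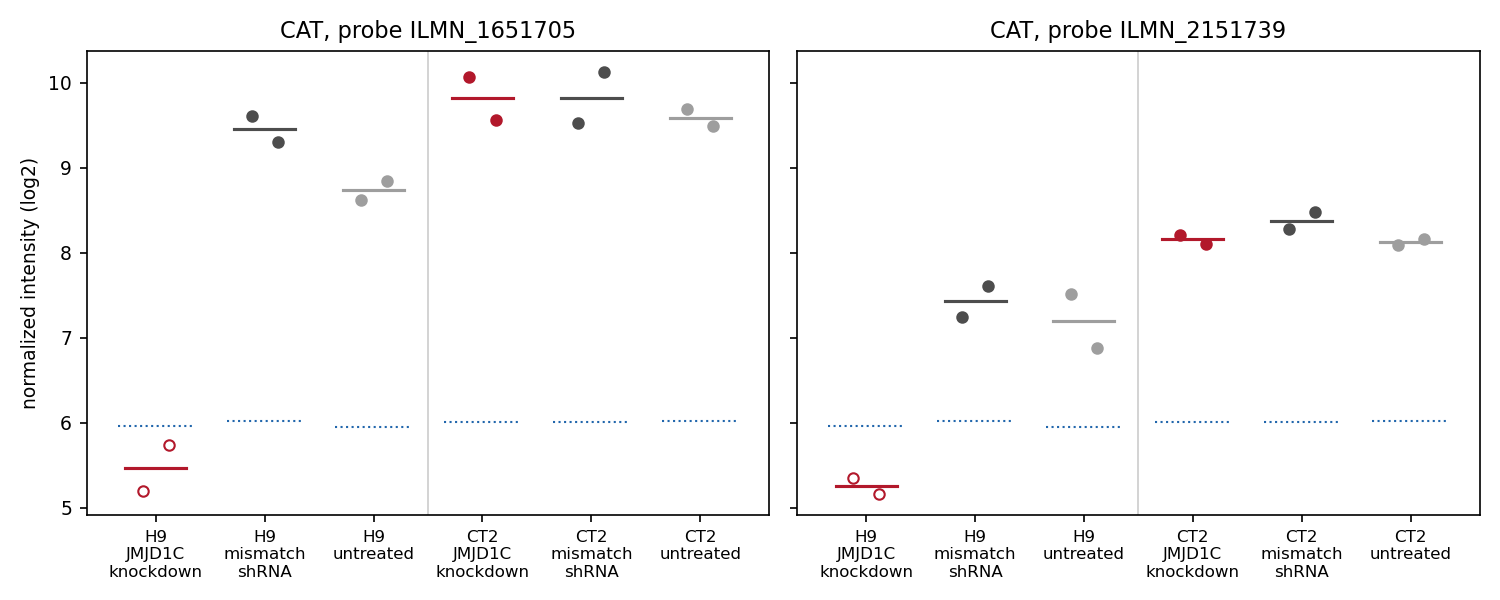
Normalized log2 intensity of both CAT probes on each array, by line and treatment. Points are single arrays (filled where detected, open where not), bars are means of 2 arrays and the dotted lines are the mean lowest signal among detected probes of each group. On both probes the 2 open points, H9 knockdown, lie below the dotted line and below all other arrays.

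Other features moved with the knockdown. ZFP42, a pluripotency marker also called REX1, was lower in H9 knockdown than in H9 mismatch cells by a log2 difference of -1.22 (adjusted p = 0.000662), and it was the only pluripotency marker of 7 that passed there. Of 6 tested fibroblast markers, COL1A1 was lower (-1.57, adjusted p = 0.00499) and THY1 was higher (0.87, adjusted p = 0.00700) in that comparison. The summed intensity of all 8 fibroblast markers, before normalization, ran between 15082 and 21368 units in H9 knockdown cells, 11491 and 11738 in H9 mismatch cells, and 10293 and 12678 in untreated H9 cells. Bright genes weigh most in such a sum. THY1 averaged 13.47 in H9 knockdown against 12.60 in H9 mismatch cells on the normalized log2 scale, and COL1A1 8.70 against 10.27. The share of THY1 in the sum was not tested. Of the 8, COL3A1, DCN, LUM and POSTN were not detected on any of these arrays. The other 4, COL1A1, COL1A2, THY1 and PDGFRB, were detected on all of them. No tested marker of the neural, endoderm, trophoblast or blood lists passed in H9 knockdown against mismatch. In CT2 knockdown against mismatch, the endoderm marker AFP (1.97, adjusted p = 0.000723), the fibroblast marker PDGFRB (1.52, adjusted p = 0.0376) and ZFP42 (0.66, adjusted p = 0.0390) were higher. In CT2 mismatch against untreated cells, SOX2 was higher (0.86, adjusted p = 0.0236), and AFP (-1.37, adjusted p = 0.00519) and ZFP42 (-0.62, adjusted p = 0.0288) were lower, while POSTN was detected on both untreated CT2 arrays and on no CT2 mismatch array. The part of these shifts in the CAT, NQO1, TXNRD2 and SLC7A11 results was not tested.

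CAT was also set beside the nearest tested genes on either side of it along chromosome 11, in the gene order of RefSeq GRCh38.p14. In H9 knockdown against mismatch, the log2 difference was 0.01 for NAT10 (adjusted p = 0.991), an RNA acetyltransferase, and 0.24 for ABTB2 (adjusted p = 0.894) on one side. On the opposite side it was -0.33 for APIP (adjusted p = 0.534), an enzyme of methionine salvage, and -0.03 for PDHX (adjusted p = 0.987), a subunit of pyruvate dehydrogenase. None of these 4 genes passed the test in H9. APIP was lower in CT2 knockdown than in CT2 mismatch cells (-0.86, adjusted p = 0.0177), where CAT did not pass. ELF5 and EHF lie nearer to CAT, but none of their 3 probes was above background on enough arrays to be tested.

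**Figure D2:**
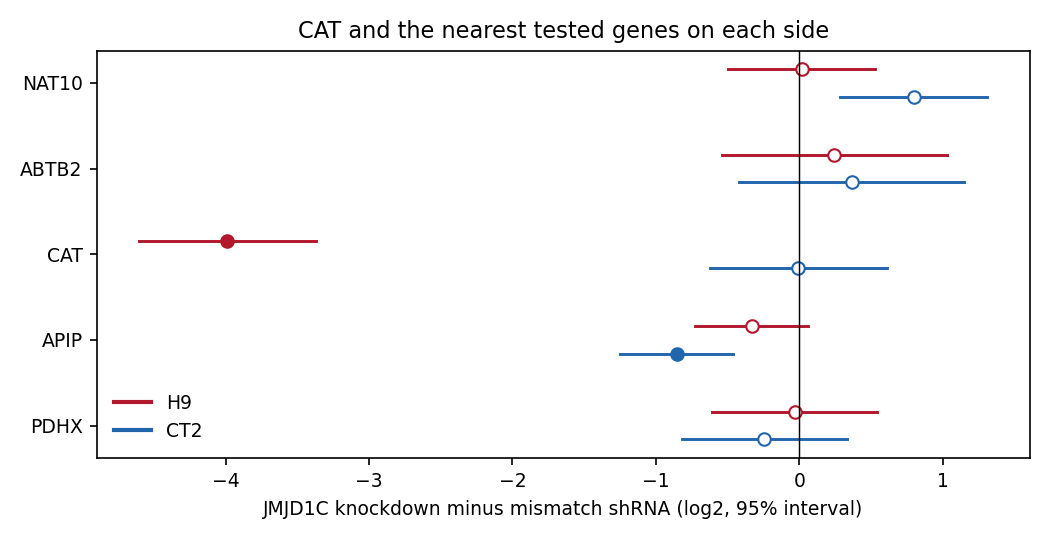
Log2 difference of JMJD1C knockdown minus mismatch shRNA with its 95% interval for CAT and the nearest tested genes on each side, in H9 (red) and CT2 (blue). Filled points passed an adjusted p of 0.05. CAT in H9 lies at -3.99, and the 4 neighbours in H9 lie between -0.33 and 0.24.

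Over the 12 arrays, the genes with the highest Pearson correlation with CAT were TLE2 (r = 0.9547), CAPN6 (0.9488), COBL (0.9421), TNNI3 (0.9353) and GPRC5C (0.9276). These coefficients describe 12 arrays that share 6 groups, and the 5 genes were picked for their likeness, so their values are a description. TNNI3, which encodes cardiac troponin I, averaged 5.89 in H9 knockdown cells against 9.18 in H9 mismatch cells, and 8.67 in CT2 knockdown cells against 9.90 in CT2 mismatch cells. It was detected on only 1 of the 2 H9 knockdown arrays, which read 5.69 and 6.10, so the size of its H9 difference is uncertain. GPRC5C, an orphan receptor, averaged 7.75 in H9 knockdown cells against 9.65 in H9 mismatch cells, and 10.15 in CT2 knockdown cells against 10.19 in CT2 mismatch cells. All 5 genes had their lowest group mean in H9 knockdown cells. Correlations of the other 8 measured antioxidant enzymes with CAT ran between -0.67 (TXNRD1) and 0.67 (SOD2).

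NQO1 was higher in JMJD1C knockdown than in mismatch cells of both lines. Its probe ILMN_1720282 read 11.77 and 12.36 in H9 knockdown cells, 10.98 and 10.94 in H9 mismatch cells, and 11.42 and 11.15 in untreated H9 cells. In CT2 it read 11.66 and 11.90 in knockdown cells, 10.47 and 10.36 in mismatch cells, and 11.50 and 11.67 in untreated cells. Every knockdown array was above both mismatch arrays of its line, and every mismatch array was below both untreated arrays of its line. The other NQO1 probe, ILMN_2354953, was detected on 0 of 12 arrays.

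Over both lines, NQO1 rose in knockdown against mismatch by 1.23 ± 0.153 on the log2 scale (SE, adjusted p = 0.000138), which is 2.35-fold and was seen on 4 of 4 knockdown arrays. With mismatch replicate 2 of CT2 left out the rise was 1.20 (adjusted p = 0.000178). Within H9 it rose by 1.10 (adjusted p = 0.00913), and within CT2 by 1.36 (adjusted p = 0.00316). The H9 response minus the CT2 response was -0.26 and did not pass (adjusted p = 0.835). Its 95% interval, -0.91 to 0.39, holds both a smaller and a larger rise in H9 than in CT2. The H9 call was lost without H9 knockdown replicate 2, H9 mismatch replicate 1 or H9 mismatch replicate 2, with adjusted p-values up to 0.222. In CT2, leaving out knockdown replicate 2 ended the NQO1 call (adjusted p = 0.0821), and leaving out mismatch replicate 2 gave 1.31 (adjusted p = 0.0115).

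Against untreated cells the NQO1 knockdown difference was smaller. Over both lines it was 0.48 (adjusted p = 0.0955), in H9 0.77 (adjusted p = 0.0657) and in CT2 0.20 (adjusted p = 0.893), none of which passed. Mismatch cells were lower than untreated cells over both lines (-0.75, adjusted p = 0.0273) and in CT2 (-1.17, adjusted p = 0.00426), but not past the threshold in H9 (-0.33, adjusted p = 0.606). These comparisons share arrays with each other, so the fitted values are set side by side and not as separate evidence. The CT2 call of mismatch against untreated was lost without CT2 untreated replicate 2 (adjusted p = 0.0640) and was -1.11 (adjusted p = 0.0199) with mismatch replicate 2 left out. The call over both lines was lost when either H9 mismatch array, H9 untreated replicate 1 or either untreated CT2 array was left out, with adjusted p-values up to 0.146.

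From the highest, the NQO1 group means were 12.06 in H9 knockdown, 11.78 in CT2 knockdown, 11.58 in untreated CT2, 11.29 in untreated H9, 10.96 in H9 mismatch and 10.42 in CT2 mismatch cells. The 3 highest groups overlapped with their neighbours, and the lower 3 did not.

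Neither superoxide dismutase passed in knockdown against mismatch. SOD1, the copper and zinc enzyme of the cytosol, ran between 14.44 and 14.91 over the 12 arrays, and its knockdown minus mismatch difference over both lines was 0.10 (adjusted p = 0.593). SOD2, the manganese enzyme of mitochondria, ran between 10.98 and 11.96 on probe ILMN_2336781, and its knockdown minus mismatch difference was -0.20 (adjusted p = 0.441). Every H9 array was below every CT2 array for SOD2. It averaged 11.03 in H9 knockdown against 11.65 in CT2 knockdown cells, 11.18 in H9 mismatch against 11.90 in CT2 mismatch cells, and 11.21 in untreated H9 against 11.62 in untreated CT2 cells. The H9 minus CT2 differences were -0.61 (adjusted p = 0.115), -0.72 (adjusted p = 0.0535) and -0.41 (adjusted p = 0.164), and none passed. The mismatch difference passed when either untreated H9 array or CT2 mismatch replicate 1 was left out. The dimmer SOD2 probe, ILMN_2406501, gave -0.93 in untreated cells (adjusted p = 0.0534), and the last SOD2 probe, ILMN_1792922, was detected on 0 arrays.

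None of the 3 glutathione peroxidases passed in knockdown against mismatch. GPX1, the abundant cytosolic form, ran between 13.22 and 13.72, and its knockdown minus mismatch difference was 0.02 (adjusted p = 0.959). Its other probe was detected on 5 of 12 arrays. GPX4, which reduces lipid peroxides in membranes, read 14.54 and 14.75 in CT2 mismatch cells against 13.97 and 14.13 in untreated CT2 cells. That mismatch minus untreated difference of 0.60 ± 0.158 (SE) passed in CT2 (adjusted p = 0.0245), and the other GPX4 probe gave 0.39 without passing (adjusted p = 0.178). Leaving out mismatch replicate 2 of CT2 ended the call (0.49, adjusted p = 0.130), as did leaving out either untreated CT2 array. GPX4 was also higher in untreated H9 than in untreated CT2 cells (0.51, adjusted p = 0.0411), a call lost under 12 of 20 alternatives, with 0.14 on the other probe (adjusted p = 0.660). In knockdown against mismatch GPX4 gave -0.18 (adjusted p = 0.382).

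GPX7, a peroxidase of the endoplasmic reticulum that helps form disulfide bonds, was the remaining member of that family. It read 9.79 and 9.69 in H9 knockdown cells against 9.82 and 9.97 in H9 mismatch cells, and 9.26 and 9.46 in CT2 knockdown cells against 10.14 and 10.06 in CT2 mismatch cells. All 4 knockdown arrays were below the mismatch arrays of their line. The differences were -0.45 over both lines (adjusted p = 0.105), -0.15 in H9 (adjusted p = 0.886) and -0.74 in CT2 (adjusted p = 0.0701), and none passed.

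The thioredoxin branch showed no member past the threshold in knockdown against mismatch. PRDX1, which uses thioredoxin to reduce peroxides, had the brightest probes, with raw intensities up to 51677 and 56166 units. Both ranked at the 99.2 and 99.0 percentiles of kept probes, and whether signals so bright were compressed by saturation was not tested. Its difference was -0.05 over both lines (adjusted p = 0.830), and it ran between 15.23 and 15.57 over all arrays on the probe that stands for it. TXNRD1, the cytosolic thioredoxin reductase, read 11.77 and 11.65 in H9 knockdown cells against 11.48 and 11.48 in H9 mismatch cells, and 11.50 and 11.62 in CT2 knockdown cells against 11.43 and 11.21 in CT2 mismatch cells. On this probe all 4 knockdown arrays were above the mismatch arrays of their line, but the difference of 0.24 did not pass (adjusted p = 0.346). The other TXNRD1 probe, ILMN_2324421, did not show that order in either line. It read 11.56 and 11.61 in H9 knockdown against 11.89 and 11.02 in H9 mismatch cells. In CT2 it read 11.31 and 11.23 in knockdown against 10.97 and 11.32 in mismatch cells. That other probe passed in untreated cells, H9 minus CT2 (0.98, adjusted p = 0.0253), where the probe that stands for the gene gave 0.25 (adjusted p = 0.471 in the same fit).

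**Figure D3:**
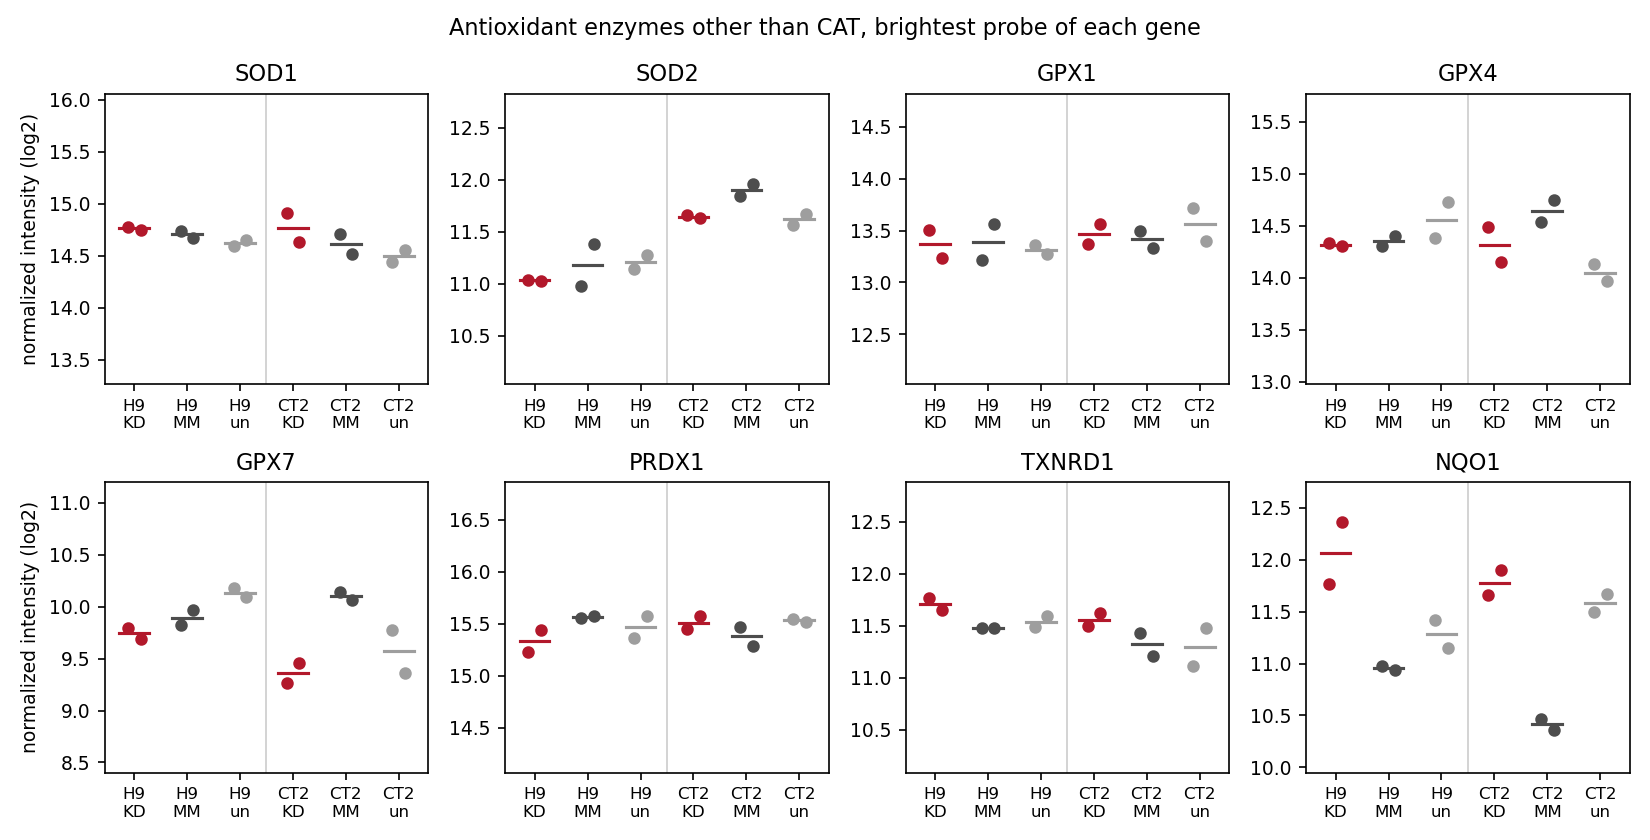
Normalized log2 intensity of the antioxidant enzymes other than CAT on each array, on the brightest probe of each gene, with every panel spanning the same log2 range. KD is the JMJD1C knockdown, MM the mismatch shRNA and un untreated; points are single arrays and bars are means of 2. NQO1 is lowest in the mismatch groups, and every SOD2 array of H9 lies below every CT2 array.

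Counted over the 9 measured members, knockdown against mismatch over both lines gave 1 higher (NQO1) and 1 lower (CAT), while 3.18% of all 13951 genes were called higher and 3.38% lower. Those shares rest on single arrays: the 444 higher and 471 lower genes became 164 and 199 without CT2 knockdown replicate 2, and 1039 and 746 without CT2 mismatch replicate 1. In H9 the same members gave 1 higher and 1 lower, beside 0.989% and 1.56% of all genes. In CT2 there was 1 higher (NQO1), beside 2.75% of all genes, and 0 lower. The line difference called CAT alone of the 9, with 0.294% of all genes called in that direction. The median log2 difference of the members was -0.04 in H9 and 0.05 in CT2, beside 0.01 and 0.03 over all genes.

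Against untreated cells, the knockdown gave 1 lower over both lines (CAT, beside 1.86% of all genes), 1 lower in H9 (CAT, beside 1.46%) and 0 in CT2, where 0.308% of genes were called in either direction. Mismatch against untreated gave 1 lower over both lines (NQO1, beside 0.616%) and 0 in H9 (0.0502% in either direction). In CT2 it gave 1 higher (GPX4, beside 4.62%) and 1 lower (NQO1, beside 6.39%). H9 against CT2 gave 1 higher in untreated cells (GPX4, beside 5.99%), 0 in mismatch cells (2.96% in either direction) and 1 lower in knockdown cells (CAT, beside 1.88%). No comparison called over 1 of the 9 members in a direction, so the counts are not read as a result for the members as a set. A single call in 9 is near the share of all genes in knockdown against mismatch over both lines (3.18% higher and 3.38% lower). The same holds for CT2 mismatch against untreated cells and for the untreated lines.

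**Figure D4:**
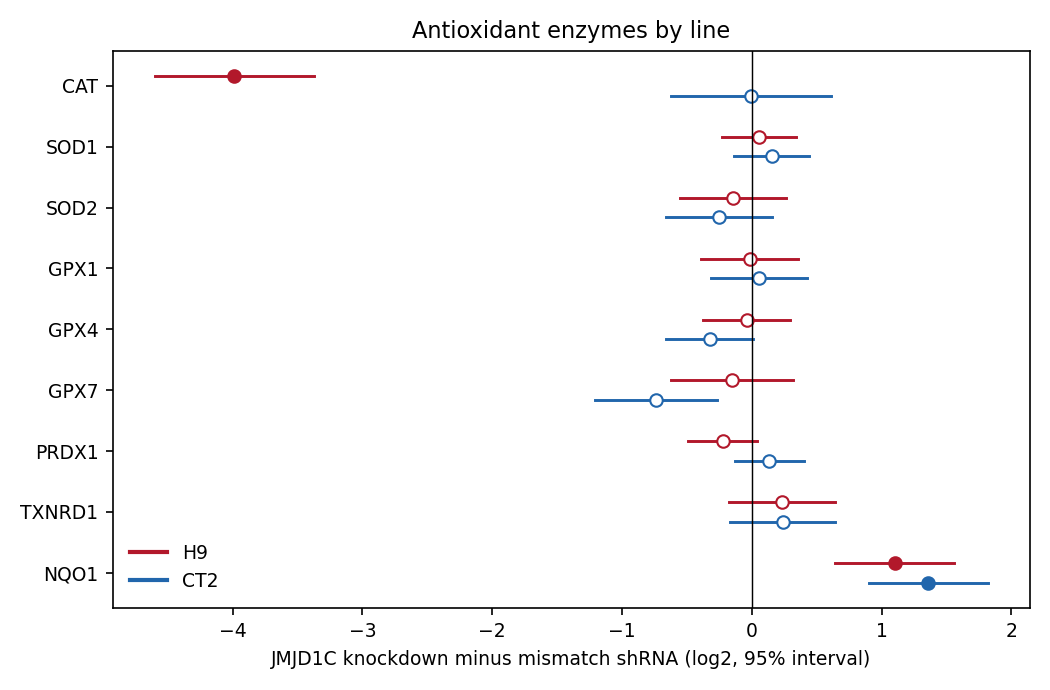
Log2 difference of JMJD1C knockdown minus mismatch shRNA with its 95% interval for the 9 measured antioxidant enzymes, in H9 (red) and CT2 (blue). Filled points passed an adjusted p of 0.05. CAT in H9 lies at -3.99 and in CT2 at -0.01, while NQO1 lies at 1.10 in H9 and 1.36 in CT2.

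Of 17 other redox enzymes, 16 were tested, and in knockdown against mismatch over both lines 1 was higher, 0 were lower and 15 did not pass, beside 3.18% and 3.38% of all genes called higher and lower. A single call in 16 is near that background. The median of the list was 0.18, beside 0.01 over all genes. The gene that passed was TXNRD2, the mitochondrial thioredoxin reductase, at 0.79 (adjusted p = 0.00576). It averaged 10.05 in H9 knockdown against 9.96 in H9 mismatch cells, and 10.39 in CT2 knockdown against 8.91 in CT2 mismatch cells, with 10.42 in untreated CT2 cells. CT2 mismatch was the lowest group. The CT2 difference was 1.48 (adjusted p = 0.00176), and it was 1.28 (adjusted p = 0.0105) with mismatch replicate 2 of CT2 left out. Mismatch cells were also lower than untreated cells over both lines (-0.85, adjusted p = 0.0163), a call lost when either H9 mismatch array or either untreated CT2 array was left out.

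PRDX4, a peroxiredoxin of the endoplasmic reticulum, was called in H9. It averaged 13.14 in H9 knockdown against 13.89 in H9 mismatch cells (-0.74, adjusted p = 0.0118), and 14.12 in CT2 knockdown against 13.80 in CT2 mismatch cells (0.32, adjusted p = 0.243). The H9 response minus the CT2 response was -1.07 (adjusted p = 0.0387), a call that was kept under 7 of 21 alternatives and lost with mismatch replicate 2 of CT2 left out (-1.05, adjusted p = 0.0522). The H9 call was kept under 16 of 21 and was lost without H9 knockdown replicate 2 and without either H9 mismatch array. PRDX1, which did not pass, gave -0.22 in H9 (95% interval -0.49 to 0.04) and a line difference of -0.36 (adjusted p = 0.480), and the 2 peroxiredoxins were not tested against each other. The other PRDX1 probe, ILMN_2366388, leaned the other way in H9, averaging 15.36 in knockdown against 15.29 in mismatch cells. In CT2 that probe averaged 15.37 in knockdown against 15.39 in mismatch cells.

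Against untreated cells, TXNIP, which binds and inhibits thioredoxin, was higher both in knockdown cells (1.45, adjusted p = 0.00194) and in mismatch cells (1.07, adjusted p = 0.0356) over both lines. It averaged 11.47 in H9 knockdown, 10.76 in H9 mismatch and 9.29 in untreated H9 cells, and 12.07 in CT2 knockdown, 12.03 in CT2 mismatch and 11.36 in untreated CT2 cells. The mismatch call was lost under 9 of 21 alternatives and the knockdown call under 0. Among untreated cells it was lower in H9 than in CT2 (-2.07, adjusted p = 0.00101). In knockdown against untreated over both lines, GLRX, a glutaredoxin, was also higher (0.55, adjusted p = 0.0314), and PRDX4 was lower (-0.42, adjusted p = 0.0421), calls lost under 13 and 15 of 21 alternatives. The PRDX4 fall lay in H9, with 13.14 in knockdown against 13.99 in untreated cells, a difference that passed there. In CT2 it averaged 14.12 in knockdown against 14.10 in untreated cells and did not pass. SOD3, the extracellular dismutase, was detected only on both untreated H9 arrays, at 6.44 and 6.80, and on CT2 mismatch replicate 2, at 7.35. It entered the tests through those arrays, so no test is read from its level in untreated H9 cells.

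Of 12 genes for glutathione supply and the NRF2 pathway, 10 were tested, and in knockdown against mismatch over both lines 1 was higher, 0 were lower and 9 did not pass, again near the 3.18% and 3.38% of all genes. The list's median was 0.01, beside 0.01 over all genes. SLC7A11, the cystine transporter that feeds glutathione synthesis, was the gene that passed, at 1.24 (adjusted p = 0.00350). It averaged 6.80 in H9 knockdown against 6.59 in H9 mismatch cells, and 7.76 in CT2 knockdown cells against a CT2 mismatch group in which it was not well above background. In CT2 it was at least 3.37-fold higher in knockdown than in mismatch cells (adjusted p = 0.00146), and untreated CT2 cells averaged 7.02. CT2 mismatch was the lowest group, at least 2.01-fold below untreated CT2 cells. In CT2 mismatch against untreated cells SLC7A11 and HMOX1 were called lower, 2 of the 10, beside 6.39% of all genes. Neither passed in CT2 knockdown against untreated cells. The fitted SLC7A11 difference of CT2 knockdown minus mismatch was 2.26, 2.11 with mismatch replicate 2 left out, and 1.01 without background correction, a value below the 3.37-fold bound. Over both lines the difference without background correction was 0.55. Among the genes that did not pass, values ran between -0.11 (FTL, a ferritin subunit) and 0.62 (HMOX1, heme oxygenase). NFE2L2, which encodes NRF2, and its partner KEAP1 were among them.

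Of 15 peroxisome genes, 11 were tested, and 0 were higher, 1 was lower and 10 did not pass in knockdown against mismatch over both lines, near the same 3.18% and 3.38%, with a median of -0.00083 beside 0.01 over all genes. The gene that passed was PEX19, the chaperone that brings membrane proteins to peroxisomes, at -0.60 (adjusted p = 0.0200). It averaged 9.71 in H9 knockdown against 10.43 in H9 mismatch cells, and 9.56 in CT2 knockdown against 10.04 in CT2 mismatch cells. All 4 knockdown arrays lay below the mismatch arrays of their line, and neither line passed alone (adjusted p = 0.0906 in H9 and 0.198 in CT2). PEX19 was also lower in knockdown than in untreated cells (-0.70, adjusted p = 0.0130), a call lost under 5 of 21 alternatives. Against mismatch cells the call was lost under 7 of 21 alternatives, namely median scaling and leaving out any H9 knockdown, H9 mismatch or CT2 knockdown array, with adjusted p-values up to 0.218. In H9 knockdown against mismatch, 0 of the 11 peroxisome genes passed, in a comparison that called 0.989% of all genes higher and 1.56% lower, and their values ran between -0.72 (PEX19) and 0.48 (ACAA1).

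Between the untreated lines, EHHADH, an enzyme of peroxisomal fatty acid oxidation, was lower in H9 than in CT2 (-1.78, adjusted p = 0.00247), as was PEX5, the import receptor for peroxisomal enzymes including catalase (-0.64, adjusted p = 0.0403). PEX14, its docking partner, was higher in H9 (1.09, adjusted p = 0.00804). The PEX5 call was lost under 15 of 20 alternatives, the PEX14 call only without CT2 untreated replicate 1 (adjusted p = 0.0955), and the EHHADH call under 0 of 19. EHHADH was lower in H9 than in CT2 also among knockdown cells (-1.85, adjusted p = 0.00277) and mismatch cells (-2.56, adjusted p = 0.000139). In H9 it lay close to background, averaging 6.21 in untreated, 6.56 in knockdown and 6.10 in mismatch cells, and was not detected on H9 mismatch replicate 2. The size of these differences is therefore uncertain, and the untreated one ran between -1.82 and -0.87 under alternatives.

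**Figure D5:**
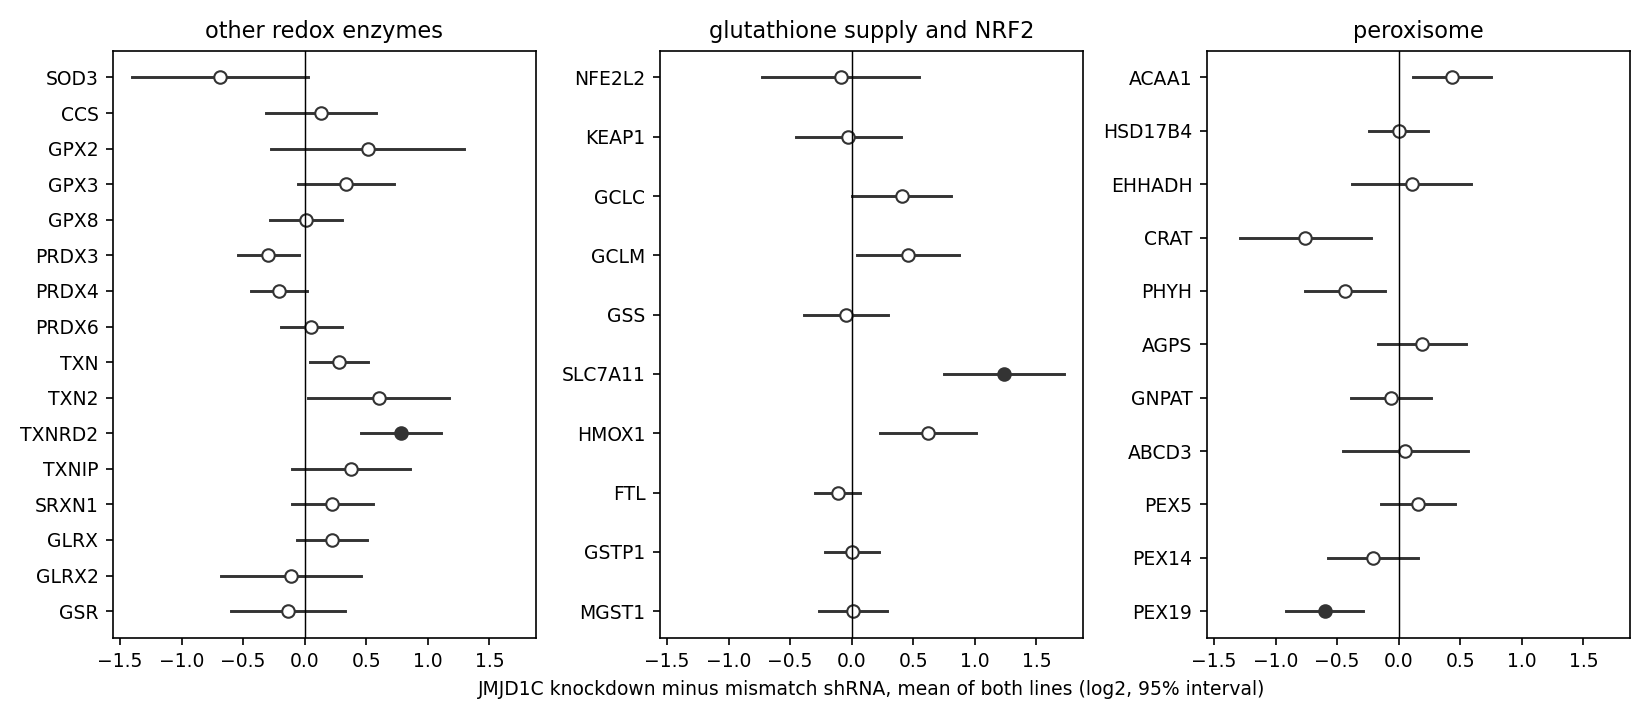
Log2 difference of JMJD1C knockdown minus mismatch shRNA averaged over both lines, with its 95% interval, for the tested genes of the 3 wider lists. Filled points passed an adjusted p of 0.05. They are TXNRD2 at 0.79, SLC7A11 at 1.24 and PEX19 at -0.60.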

How the data were processed

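Total RNA of H9 and CT2 cells was labelled with biotin and hybridised to Illumina bead arrays. Each array of the deposited raw table has, per the file headers, an average intensity and a detection p-value for every probe. GenomeStudio was used, per the submitters' processing notes, in a version that the sources used here do not give. A value table by the authors holds linear intensity for 47323 probes, normalized within each line by a method the labels do not name, with column medians between 179.8 and 180.3.

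The H9 and CT2 blocks were joined by probe identifier. Background was corrected with normexp on negative controls inferred from the deposited detection p-values, with an offset of 16, and the 12 arrays were quantile normalized together and turned into log2 values (R 4.3.3, limma 3.58.1). Probes needed a detection p below 0.05 on 2 or more arrays. The probe with the highest mean stood for a gene, and 30108 probes carried 1 symbol, 8 several and 17198 none. A model with 1 mean for each of the 6 groups was fitted to 13951 genes with eBayes (trend and robust), two-sided, with Benjamini-Hochberg adjustment over all genes for each comparison and a threshold of 0.05. Dimmer probes were read from the same model over all 25905 kept probes. The scripts were tested on simulated data. Figures were drawn with matplotlib 3.10.9.

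The members, the wider lists, the markers and the tests were chosen with earlier results of these data known. From the wider lists, genes are named where they passed in knockdown against mismatch, knockdown or mismatch against untreated, over both lines, or H9 against CT2 untreated; single-line values were read for these genes. CAT's neighbours are the 2 nearest tested genes on each side, and its likeness genes the 5 with the highest correlation. The array files name no genome build, so only promoter windows carry coordinates. Replicate numbers in the labels are not said to pair samples. Alternatives were no background correction, median scaling, the authors' value table, no detection filter and detection on all arrays. Others were all kept probes, a replicate block and no trend or robust moderation. Each array was also left out in turn. The 2 poorly correlated arrays left out together were CT2 mismatch replicate 2 and H9 untreated replicate 1.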

Additional observations from a re-analysis of the deposited data

Results flagged for a closer look

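Responses to the knockdown that differed between the lines by the test of the difference itself are given here as the H9 response minus the CT2 response on the log2 scale. For CAT it was -3.98 (adjusted p = 6.10e-05), from a response of -3.99 in H9 and of -0.01 in CT2. For PRDX4 it was -1.07 (adjusted p = 0.0387), from -0.74 in H9 and 0.32 in CT2, and this call was lost under 14 of 21 alternatives. For TNNI3 it was -2.06 and for GPRC5C -1.85, and both genes were picked for their likeness to CAT over these arrays, so these values are a description and not independent of the CAT result. The TNNI3 value also rests on an H9 knockdown group close to background.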

How the results depend on the processing

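No called value that was followed here changed sign under any alternative. Differences that were not called could do so. CAT in CT2 knockdown against mismatch went from -0.01 to 0.30 with CT2 mismatch replicate 2 left out. Of 718 single-gene values under alternatives, 580 kept their call and 138 did not pass. The CAT calls were kept under every alternative that could test the gene, with H9 knockdown minus mismatch between -4.26 and -2.27 (the smallest without background correction) and a highest adjusted p of 4.87e-05. With detection required on all arrays, CAT was not tested, and the members called were 1 in knockdown against mismatch over both lines, 1 in H9, and 0 for the line difference, for knockdown against untreated over both lines and in H9, and for H9 against CT2 knockdown. Leaving out the 2 poorly correlated arrays called 2 members in knockdown against untreated over both lines and in H9 (CAT and NQO1), 2 in H9 against CT2 knockdown (CAT and SOD2) and 1 in CT2 mismatch against untreated. Median scaling called 1 in CT2 mismatch against untreated and 0 in untreated H9 against CT2; it moved the median of all genes in knockdown against mismatch to 0.12 and the split of calls to 610 higher and 313 lower, beside 444 and 471. Without trend and robust settings the counts were 0 in mismatch against untreated over both lines, 1 in CT2 and 0 in untreated H9 against CT2. For that last comparison, no background correction gave 2, and no detection filter and all kept probes gave 0.

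With a replicate block, NQO1 was no longer called in mismatch against untreated over both lines (0 members) nor GPX4 in untreated H9 against CT2 (0 members), and no other call of a member changed. All genes called fell to 731, beside 915, in knockdown against mismatch. The labels do not say that a number pairs arrays, and deviations of same-numbered arrays correlated between -0.318 and 0.213, not over 0.1 in every pair, so the numbers were treated as names; whether arrays were paired is not known.

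With 1 array left out, the genes called in knockdown against mismatch over both lines, 444 higher and 471 lower, were over 1.5 times fewer when any H9 knockdown array, any H9 mismatch array or CT2 knockdown replicate 2 was the one left out (lowest 164 and 199) and rose to 1039 and 746 without CT2 mismatch replicate 1. With 1 array left out, the members called ranged from 1 to 2 in H9 knockdown against mismatch, 0 to 1 in CT2, 1 to 2 in H9 knockdown against untreated, 0 to 1 in mismatch against untreated over both lines, 0 to 2 in CT2, 0 to 2 in untreated H9 against CT2, and 0 to 1 in mismatch H9 against CT2. The cause of these changes was not tested. Where a group was left with 1 array, that array was assumed to vary like the other groups. CAT in H9 knockdown cells has only an upper bound, as does SLC7A11 in CT2 mismatch cells.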
